A study of Homo sapiens with 4 samples.

Results

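A set of 9 genes encoding transcription factors of the intestinal epithelium was followed through the peak lists of a chromatin immunoprecipitation sequencing (ChIP-seq) study in HCT116 cells: EHF, ELF3, GRHL2, KLF5, KLF4, CDX1, CDX2, HNF4A and GATA6. A region belonged to a gene when its row in a list carried the symbol of that gene, and each region was counted once per gene. By this rule the 9 genes, of 29853 RefSeq genes used as background, held 43 of the 15789 regions of the H3K27ac list and 1 of the 13127 regions of the HSF1 list. HCT116 is a human colorectal carcinoma line, here grown in McCoy's 5A medium and fixed in formalin with no treatment. The 4 libraries were an H3K27ac immunoprecipitate (IP) with its own input and an HSF1 IP with its own input, so each group was 1 library of 1 cell line. With no replicates, replicate error is unknown throughout and no comparison was tested. Peak positions are in hg19. Ranges in brackets are exact Poisson 95% intervals of tag counts, which cover counting error only.

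These factors fall into families with different DNA-binding domains. EHF and ELF3 are epithelium-specific ETS factors, which bind a GGAA core. GRHL2 is a grainyhead-like factor that maintains junction genes such as CDH1. KLF5 and KLF4 are zinc finger factors of GC-rich and CACCC sequences. In the intestine KLF5 is known from proliferating crypt cells and KLF4 from differentiating cells, goblet cells among them. CDX1 and CDX2 are caudal-type homeodomain factors of intestinal identity, HNF4A is a nuclear receptor of enterocytes and hepatocytes, and GATA6 is a zinc finger factor of endoderm. H3K27ac, the acetylation of lysine 27 on histone H3, marks active promoters and enhancers, and HSF1 is the factor of the heat shock response, which binds repeats of a GAA unit.

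The promoter sequences of 4 of these genes are shown because they set the single deposited start that lay under an H3K27ac peak beside genes without such a start. Each run holds 250 bases before to 50 bases after a RefSeq start in GRCh38.p14, and 7 of the 9 genes had an entry. The internal start of EHF was recognised by its distance of 11473 bp from the first start of the gene in both assemblies. Among the deposited starts it was the one covered by a peak. Another EHF entry, not printed, starts 3164 bp after the first start in GRCh38. If that distance holds in hg19, it also lay under an H3K27ac peak, which covered 1294 to 3386 bp after the first start. ELF3 and KLF4 had peaks only further away, and CDX2 had none. Capitals mark matches on either strand to 10 short patterns, which can share bases. For HSF1 these were GAANNTTC and TTCNNGAA, each a pair of heat shock units. The pattern of ETS factors was CCGGAA, that of GRHL factors was AACCNGTT and that of KLF factors was CCNCNCCC. GATA factors were searched by AGATAA, while CDX factors were searched by the letters TTTATG and HNF4 by CAAAGTCCA. Beside these, the AP-1 pattern was TGANTCA, and the TATA box was searched by TATAAA.
EHF, internal start, chr11:34632316-34632615, plus strand: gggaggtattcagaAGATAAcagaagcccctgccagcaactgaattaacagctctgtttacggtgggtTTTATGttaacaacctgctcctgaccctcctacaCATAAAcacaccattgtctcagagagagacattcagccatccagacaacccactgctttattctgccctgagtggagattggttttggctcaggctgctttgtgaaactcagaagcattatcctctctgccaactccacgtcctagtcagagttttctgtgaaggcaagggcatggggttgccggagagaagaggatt
ELF3, chr1:202010337-202010636, plus strand: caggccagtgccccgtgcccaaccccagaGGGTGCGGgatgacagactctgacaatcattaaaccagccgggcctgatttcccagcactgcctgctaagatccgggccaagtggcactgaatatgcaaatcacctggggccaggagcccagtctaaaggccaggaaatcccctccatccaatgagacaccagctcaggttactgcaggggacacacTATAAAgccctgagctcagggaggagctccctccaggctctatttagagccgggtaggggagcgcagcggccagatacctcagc
KLF4, chr9:107489720-107490019, minus strand: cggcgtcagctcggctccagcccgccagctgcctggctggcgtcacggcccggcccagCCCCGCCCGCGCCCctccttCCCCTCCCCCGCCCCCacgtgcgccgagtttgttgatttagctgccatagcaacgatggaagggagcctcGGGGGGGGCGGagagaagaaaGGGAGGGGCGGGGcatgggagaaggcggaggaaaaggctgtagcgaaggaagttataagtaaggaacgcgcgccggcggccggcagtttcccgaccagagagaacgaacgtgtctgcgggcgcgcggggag
CDX2, chr13:27969266-27969565, minus strand: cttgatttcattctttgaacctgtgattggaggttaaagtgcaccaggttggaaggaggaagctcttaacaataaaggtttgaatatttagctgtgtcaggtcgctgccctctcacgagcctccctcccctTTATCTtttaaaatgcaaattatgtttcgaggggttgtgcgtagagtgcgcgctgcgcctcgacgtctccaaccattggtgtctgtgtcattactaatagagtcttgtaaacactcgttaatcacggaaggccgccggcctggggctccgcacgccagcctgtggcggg

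The EHF window carried AGATAA at -236 and TTTATG, in either orientation, at -182 and -148 relative to the start. These patterns were present in 10.3% (AGATAA) and 10.6% (TTTATG) of 35116 RefSeq promoters. In the ELF3 window a TATA box lay at -34, a pattern found in 11.5% of promoters, and a KLF pattern at -221. The KLF4 window held 10 KLF matches, many of which share bases, in 69% GC and 33 CpG, against a median of 58.7% GC and 14 CpG over all promoters. The KLF pattern is common, with a match in 56.2% of promoters. The CDX2 window held 1 GATA match, at -119. None of the 10 promoter windows of the 7 genes matched GAANNTTC (6.77% of all promoters) or TTCNNGAA (7.74%).

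H3K27ac peaks were assigned to EHF, ELF3, GRHL2, KLF5 and KLF4, that is to 5 of the 9 genes, where 24.7% of all RefSeq genes and 28.5% of the 19392 protein-coding ones had a peak. CDX1, CDX2, HNF4A and GATA6 had no row in the H3K27ac or in the HSF1 list. At least 4 peaks were assigned to 5 of the 9 genes, that is to all those with a peak. Of the 29853 RefSeq genes, 1077 (3.61%) reached that number, and 7361 had a peak. KLF4 had 14 peaks, EHF 12, KLF5 8, ELF3 5 and GRHL2 4, whereas the 7361 RefSeq genes with a peak had a median of 1 and a 90th percentile of 5. Of 7390 symbols in the list, 70 had more peaks than KLF4, 104 more than EHF, 229 more than KLF5, 525 more than ELF3 and 745 more than GRHL2.

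Summed over their peaks, KLF4 held 405 tags [367 to 446] and EHF 385 tags [347 to 425]. KLF5 held 190 tags [164 to 219], GRHL2 155 [132 to 181] and ELF3 147 [124 to 173]. The intervals split the genes into a pair (KLF4 and EHF) and a trio (KLF5, GRHL2 and ELF3), and within each the intervals overlapped, by little between KLF5 and ELF3. The place of KLF4 rests on distant peaks: only 2 of its peaks, with 60 and 18 tags, lay within 100 kb of its start. All 12 peaks of EHF lay within 50 kb of a start. All 5 were above the median of 36 summed tags over genes with a peak, at the 98.0 (KLF4), 97.8 (EHF), 93.5 (KLF5), 91.2 (GRHL2) and 90.3 (ELF3) percentiles. A sum over peaks grows with the length called, which was 19.8 kb for KLF4, 17.7 kb for EHF, 9.82 kb for KLF5, 7.03 kb for GRHL2 and 6.55 kb for ELF3. Per kb of peak the genes were closer together, at 20.4 tags for KLF4, 21.7 for EHF, 19.3 for KLF5, 22.1 for GRHL2 and 22.5 for ELF3, with overlapping intervals.

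**Figure D1:**
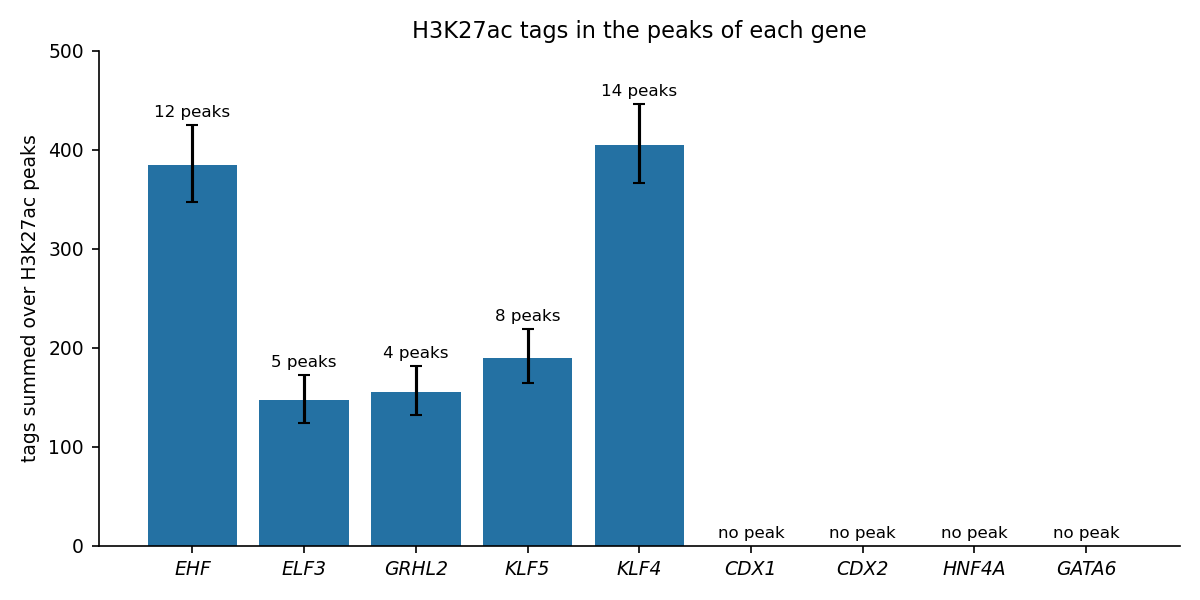
Tags summed over the H3K27ac peaks of each gene (vertical axis, number of tags), with the number of peaks above each bar and exact Poisson 95% intervals as error bars. KLF4 (405 tags) and EHF (385 tags) stand above KLF5 (190), GRHL2 (155) and ELF3 (147), and CDX1, CDX2, HNF4A and GATA6 have no peak. Only 2 of the KLF4 peaks lie within 100 kb of its start.

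The highest fold enrichment (IP over the local background, as given by the peak caller) was 9.89 for EHF, 9.40 for ELF3, 8.98 for KLF4, 8.42 for KLF5 and 7.30 for GRHL2. The order was EHF, ELF3, KLF4, KLF5 and GRHL2, and the intervals of neighbours in it overlapped: with tag error alone, the peak of EHF spanned 7.27 to 13.2 and that of GRHL2 4.52 to 11.2. Over genes with a peak the median of the highest fold enrichment was 7.25. This placed EHF at the 95.1 percentile, ELF3 at 91.8, KLF4 at 88.4, KLF5 at 80.6 and GRHL2 at 56.1. A maximum tends to rise with the number of peaks, which was 4 to 14 in these genes against a median of 1. The percentiles were not adjusted for it. As a whole the 43 peaks were of ordinary height, with a median fold enrichment of 6.17 (range 3.85 to 9.89), against 6.73 for the 15746 other peaks (range 2.88 to 25.3). Of the 43, 15 (34.9%) were above the list median, against 40.4% of the other peaks. By gene these were 5 of 8 peaks of KLF5, 3 of 5 of ELF3, 4 of 14 of KLF4, 2 of 12 of EHF and 1 of 4 of GRHL2. The median number of tags was 23 in the peaks of these genes and 24 in the others.

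**Figure D2:**
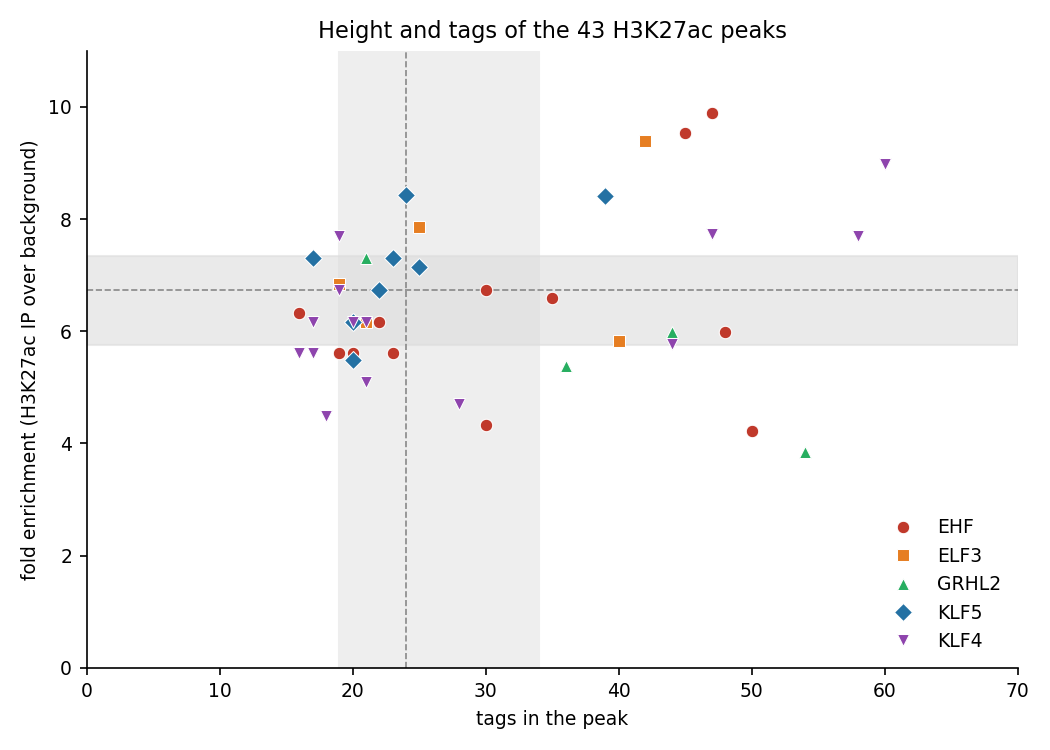
Fold enrichment (vertical axis) against tags (horizontal axis) for the 43 H3K27ac peaks, with dashed lines at the medians of the whole list (6.73 and 24) and grey bands over its middle quartiles. The peaks of highest fold enrichment belong to EHF (9.89 and 9.54) and ELF3 (9.40), while the GRHL2 peak with 54 tags reaches only 3.85.

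A false discovery rate was deposited with each peak. It ran from 9.01 to 62.1% over the 43 peaks, with a median of 12.6% that equalled the median of the list. In the H3K27ac list this rate rose with the score (rank correlation of 1.00 across 15789 peaks, which share 1 library pair), so the best scored peak of EHF had the highest rate among the 43 and no peak of the list was under 5%. In the HSF1 list the rate fell as the score rose (rank correlation of -0.998 across 13127 peaks).

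The peaks of these genes lay mostly away from starts of transcription. Of the 43, 1 (2.33%) was in the promoter class (midpoint within 2 kb of a start), against 16.8% of the other peaks. It was at EHF, so 1 of the 9 genes had a promoter-class peak, near the 9.99% of RefSeq genes that did. A further 4 (9.30%) were upstream (up to 20 kb before a start), against 18.2% of the other peaks, 5 (11.6%) were intronic, against 33.4%, and 2 were exonic. The remaining 31 were intergenic. The intergenic share was 72.1%, against 30.5% of the other peaks, and the median distance from a start was 47.0 kb, against 21.5 kb. Genes with a peak had a median of 1 peak, and these values were not compared with genes holding as many peaks as these. Without KLF4, a count added after seeing the data, 17 of 29 peaks (58.6%) were intergenic and the median distance was 29.9 kb. Relative to the gene, 18 of the 43 peaks lay before the first start, 10 inside and 15 past the end. Of the 7 deposited starts of the 5 genes, the internal start of EHF was the 1 under a peak. By gene this was 1 of the 5, where 11.4% of all symbols of the list had a start under a peak. The median gap from a start to the nearest peak edge was 2.98 kb over all symbols. By this gap EHF was at the 5.72 percentile, GRHL2 at 42.7, KLF4 at 61.2, ELF3 at 65.0 and KLF5 at 69.2, where a low percentile is a short gap.

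**Figure D3:**
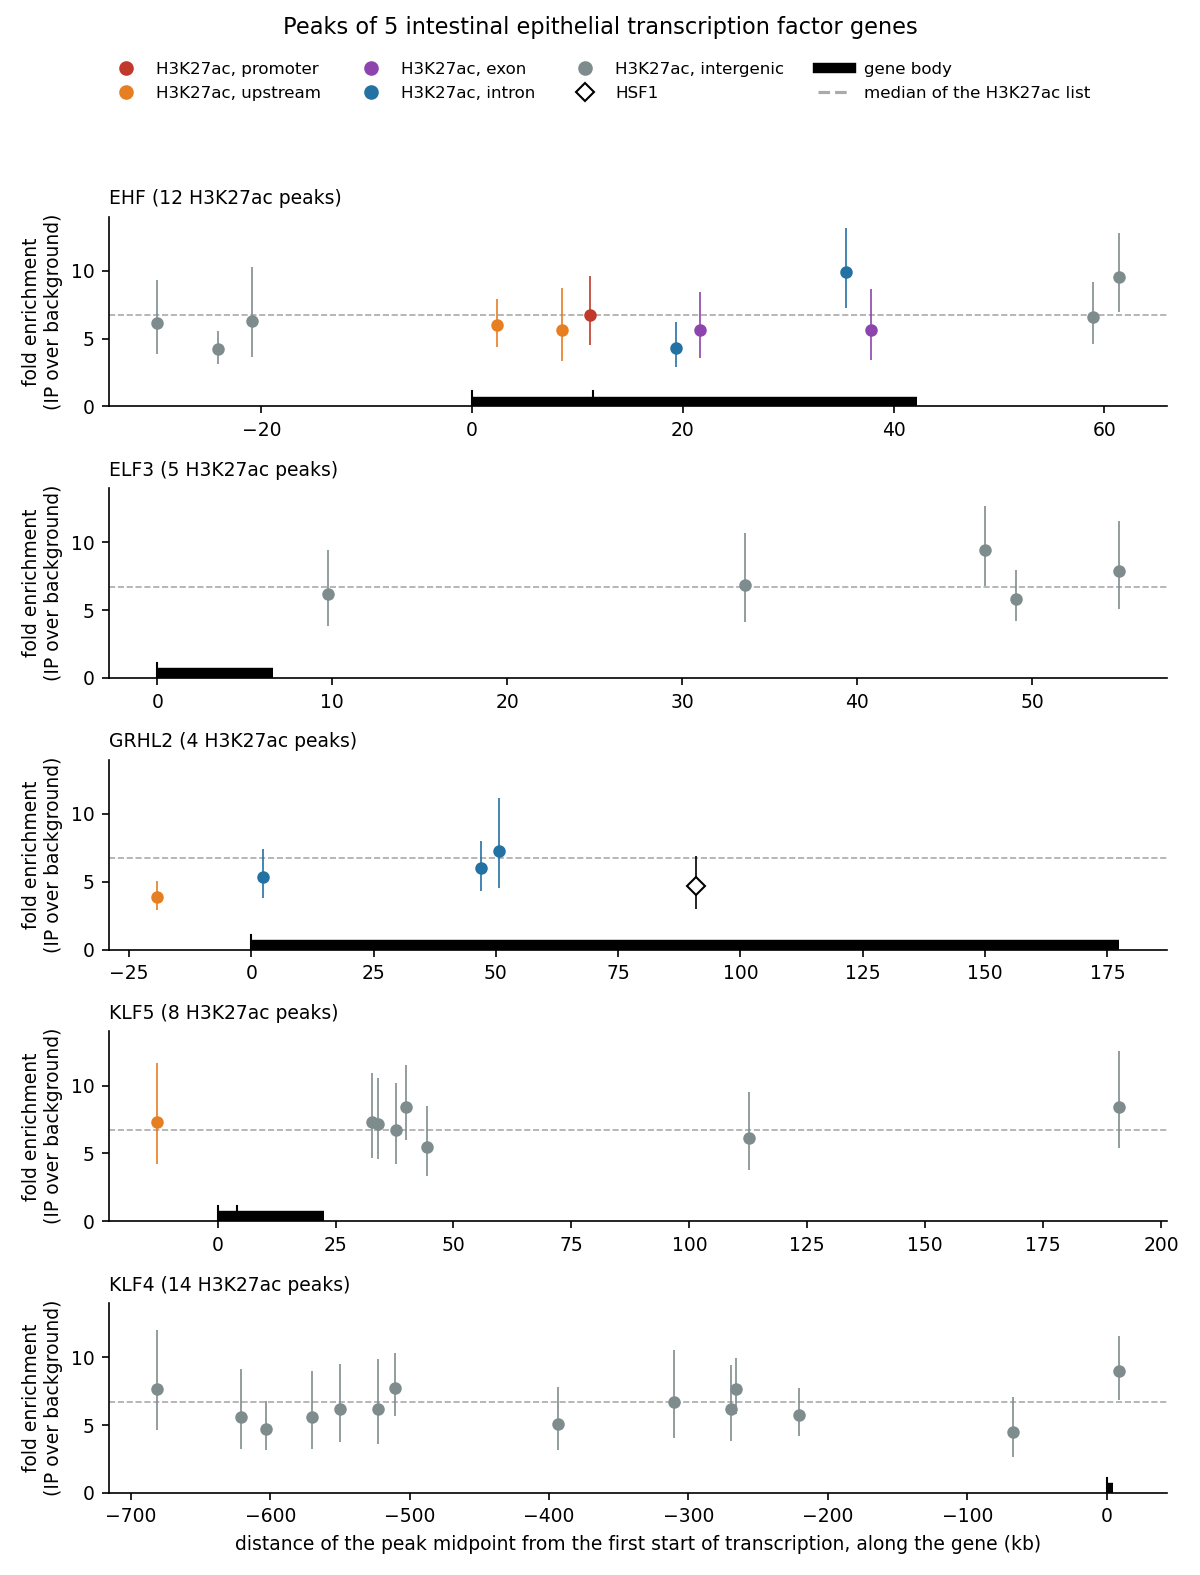
Fold enrichment of each peak (vertical axis, with error bars for tag counting error) against the distance of its midpoint from the first start of transcription, in kb along the gene. Most points of EHF and GRHL2 lie within or near the gene body, those of ELF3 and most of KLF5 past its end, and 13 of the 14 of KLF4 far before its start; the open diamond is the HSF1 peak of GRHL2, whose fold enrichment belongs to another list.

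EHF lies on chr11 with deposited starts at 34642639 and 34654112 (hg19, plus strand) and was the locus with peaks at a start, in the body and on either side. Before the first start, 3 intergenic peaks held 22, 50 and 16 tags at 6.17, 4.23 and 6.32-fold. Inside the gene lay 7 peaks. The first began 1.29 kb after the first start (chr11:34643933-34646025, 48 tags, 5.98-fold), and the deposited upstream class of it and of the next one (19 tags, 5.61-fold) refers to the internal start. The promoter-class peak at chr11:34653082-34654626 covered the internal start from 1030 bp before to 514 bp after it, with 30 tags [20.2 to 42.8] at 6.73-fold, the median of the list. Thus the printed 300 bases of the internal EHF promoter lay under this peak.

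Further along EHF, an intronic and an exonic peak held 30 and 23 tags at 4.33 and 5.61-fold. The intronic peak at chr11:34677247-34678987 was the highest of the 43 in fold enrichment and score, with 47 tags [34.5 to 62.5], 9.89-fold and a score of 169, at the 97.6 percentile of fold enrichment and the 96.3 percentile of score. The score is 10 times the negative logarithm of the p-value of the peak. An exonic peak with 20 tags at 5.61-fold followed. Past the end of EHF, chr11:34700757-34702461 held 35 tags at 6.59-fold and chr11:34703034-34704957 held 45 tags at 9.54-fold, 15.9 and 18.2 kb beyond it. In the 100 kb on either side of the starts, 13 H3K27ac peaks lay near EHF and 1 of them, with 17 tags at 5.05-fold, was assigned to ELF5, another epithelial ETS factor gene next to EHF.

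ELF3, with its start at chr1:201979714 (plus strand), had no peak before or inside the gene. Its 5 peaks lay 2.59 to 47.7 kb past its end. The nearest, at chr1:201988895-201990050, held 21 tags at 6.17-fold and began 9.18 kb after the start. The next held 19 tags at 6.85-fold. Then 3 peaks followed within 9.07 kb, and the first of them, chr1:202026261-202027814, held 42 tags [30.3 to 56.8] at 9.40-fold, at the 95.8 percentile of fold enrichment. The other 2 held 40 tags at 5.83-fold and 25 tags at 7.86-fold. Beyond them, 2 peaks in the same 100 kb window were assigned to GPR37L1, a receptor gene and the only one of the 8 protein-coding neighbours of ELF3 with an H3K27ac peak, and held 35 tags at 6.17-fold and 17 tags at 8.42-fold.

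GRHL2, with its start at chr8:102504666 (plus strand), had 4 H3K27ac peaks. An upstream peak at -19.2 kb from the start (chr8:102484288-102486626) held 54 tags [40.6 to 70.5] but only 3.85-fold, at the 92.3 percentile of tags and the 0.72 percentile of fold enrichment. In the introns, a peak that began 1.57 kb after the start held 36 tags at 5.38-fold, chr8:102550622-102552735 held 44 tags at 5.99-fold, and chr8:102554875-102555898 held 21 tags at 7.30-fold. Of these 4, the peak with the most tags had the lowest fold enrichment and the one with the fewest tags the highest, while the order of the other 2 was the same by either measure. Peaks on chromosome 8 had a median of 33 tags, against 22 or 23 on chromosomes 1, 9, 11 and 13, which hold the other 4 genes with peaks. The part of this difference in the GRHL2 tags was not tested.

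KLF5 lies on chr13 with starts at 73629113 and 73633142 (plus strand), and 7 of its 8 peaks were past its end. The exception, at chr13:73615878-73616770, lay 12.8 kb before the first start with 17 tags at 7.30-fold. A group of 5 peaks spanned 12.8 kb from 9.59 kb past the end. In order along the gene they held 23, 25, 22, 39 and 20 tags at 7.30, 7.14, 6.73, 8.41 and 5.49-fold. The fourth of these, chr13:73668067-73669842, had the most tags of the locus, 39 [27.7 to 53.3], and a score of 110. Further out, 109 and 187 kb from the nearest start, 2 peaks held 20 tags at 6.17-fold and 24 tags at 8.42-fold.

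KLF4, with its start at chr9:110252050 (minus strand), had 1 peak close to the gene. It lay 2.24 kb past its end (chr9:110241989-110244891, 2903 bp wide) and held the most tags of all 43 peaks, 60 [45.8 to 77.2], at 8.98-fold with a score of 168. The other 13 lay before the start, at -67.4 to -681 kb, and carry the symbol KLF4 by distance, not by a measured contact. Among these, chr9:110516700-110519396 held 58 tags at 7.69-fold, chr9:110761291-110763303 held 47 tags at 7.74-fold and chr9:110471887-110474051 held 44 tags at 5.77-fold, while the remaining 10 held 16 to 28 tags each. Only 2 of the 14 lay within 100 kb of the start.

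To see whether the peaks formed wide domains, H3K27ac peaks less than 10 kb apart were joined, and each region was given the width of its peaks multiplied by their fold enrichment, an approach like that used to find super enhancers. The list gave 10295 joined regions, of which 279 lay above the point where the scaled curve of ranks has a slope of 1 (the tangent point), and 1.26% of RefSeq genes had such a region. None of the 27 joined regions of these genes did, and 19 of them were a single peak. No other gene shared these 27 regions. The best ranked was the KLF5 group past the gene, at rank 368 with 5 peaks over 12.8 kb. The best region of EHF, from its first start into the body, was at rank 494 with 5 peaks over 20.8 kb. Those of ELF3, KLF4 and GRHL2 were at ranks 702, 1030 and 1657. The value of the KLF5 region was 47552 bp, against 55401 bp for the lowest region above the point. With peaks joined within 5 kb KLF5 passed (rank 292 of 364 above), and with 20 kb EHF (rank 154 of 328 above, 9 peaks over 61.0 kb) and ELF3 (rank 324, 6 peaks over 51.9 kb) passed. At 20 kb the ELF3 region also took in the 2 peaks assigned to GPR37L1.

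**Figure D4:**
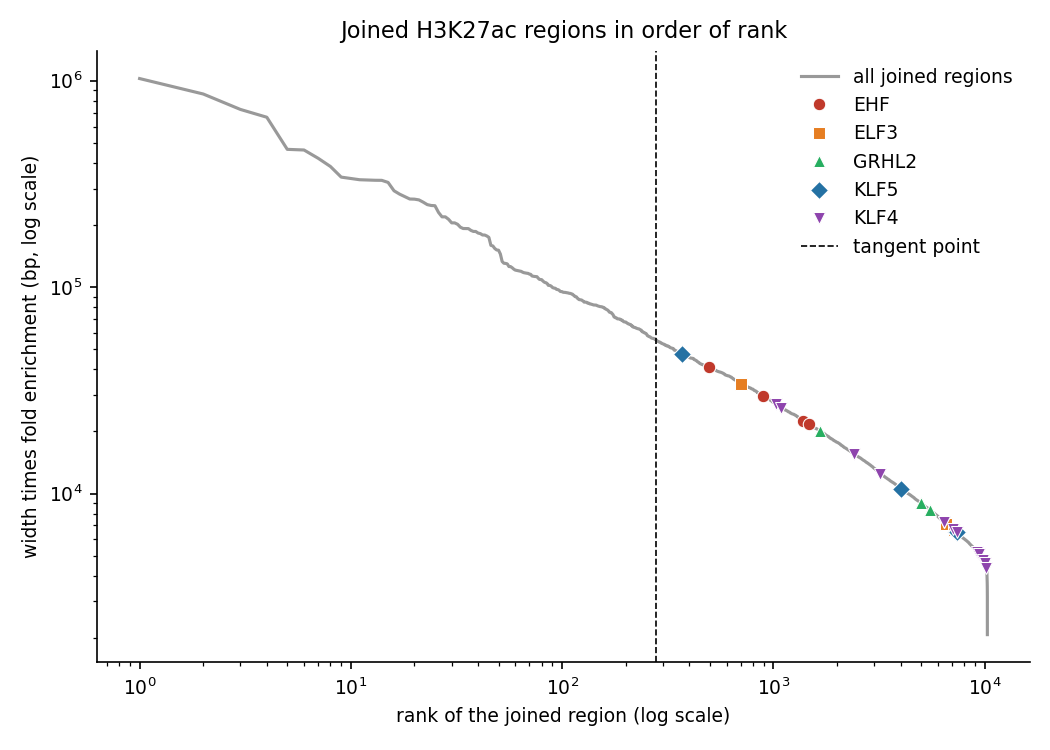
Joined H3K27ac regions in order of rank (horizontal axis, log scale) with their width times fold enrichment in bp (vertical axis, log scale); the grey line is all 10295 regions, symbols are the 27 regions of the 5 genes and the dashed line is the tangent point. All symbols lie to the right of the line, from KLF5 at rank 368 onward.

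The second question was whether HSF1 peaks were assigned to these genes. In the whole HSF1 list 1.46% of peaks were in the promoter class, and the median distance from a start was 132 kb. A gene without a row had no assigned peak above the caller's threshold, which does not show that HSF1 was absent. Only GRHL2 had an HSF1 peak, 1 of the 9 genes, where 13.6% of RefSeq genes and 12.5% of protein-coding genes had one. This peak, chr8:102594678-102596374, lay in an intron 90.9 kb after the start. It held 25 tags [16.2 to 36.9] at 4.67-fold, near the list median of 4.68. Its score of 30.3 was close to the list minimum of 30, at the 3.38 percentile, and its deposited false discovery rate was 22.2%. HSF1 peaks on chromosome 8 had a median of 30 tags, against 20 over the list. The nearest H3K27ac peak was 38.8 kb away, and none of the 43 H3K27ac peaks overlapped an HSF1 peak.

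Around the other 4 genes with H3K27ac, HSF1 peaks were further from the start. The nearest to ELF3 was at 110 kb and assigned to SHISA4, that to EHF at 218 kb and assigned to CAT, the catalase gene, that to KLF5 at 540 kb and assigned to MZT1, and that to KLF4 at 770 kb and assigned to ACTL7B. Over 7387 genes with an H3K27ac peak the median distance was 274 kb, with quartiles at 122 and 548 kb. GRHL2 (18.6 percentile) and ELF3 (22.7) were thus nearer to an HSF1 peak than most, EHF (41.7) was close to the middle, and KLF5 (74.4) and KLF4 (84.8) were further away. Chromosome 8, which holds GRHL2, had 1440 HSF1 peaks, the most of any chromosome, against 777 on chromosome 1. The percentiles were not adjusted for this, and its part in the GRHL2 distance was not tested.

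For CDX1, CDX2, HNF4A and GATA6, the lack of a row says that no peak passed the caller's threshold and was assigned to them, not that the loci lacked acetylation. Peaks were called in their neighbourhoods. Among the 4 protein-coding genes on each side in RefSeq order, H3K27ac peaks were assigned to 5 of 8 neighbours of GATA6, 4 of 8 of CDX2, 2 of 8 of HNF4A and 2 of 8 of CDX1. Next to GATA6, MIB1 and CTAGE1 had 3 peaks each, up to 6.17 and 7.30-fold. Next to CDX2, URAD had 1 peak with 15 tags at 7.30-fold, and PDX1, another homeodomain factor gene, had none. Both immediate neighbours of HNF4A (R3HDML and TTPAL) and of CDX1 (PDGFRB and SLC6A7) had none. HSF1 peaks were assigned to ESCO1 and ABHD3 near GATA6 and to TIGD6 near CDX1, and to no neighbour of CDX2 or HNF4A. The promoter windows of GATA6 (66.7% GC, 25 CpG) and CDX2 (50.3% GC, 16 CpG) had more CpG than the internal EHF window (48.3% GC, 3 CpG), which lay under a peak. The other EHF window, which by its distance from the first start also lay under a peak, had 51.3% GC and 8 CpG. A relation between CpG content and peaks was not tested.

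Related genes give the setting of these counts. Of 29 other members of the same families, 12 had an H3K27ac peak, led by KLF9 (9.54-fold), KLF6 (8.98-fold, 7 peaks), KLF15 (8.24-fold) and KLF10 (8.08-fold), and KLF13 had an HSF1 peak. HNF4G, the close relative of HNF4A, had 8 H3K27ac peaks up to 7.04-fold, and GATA1 to GATA5 and CDX4 had none, like GATA6, CDX1 and CDX2. Of 23 other intestinal or epithelial transcription factor genes 7 had an H3K27ac peak, among them NR5A2 (7.86-fold), HES1 and TCF7L2 (7.21-fold each, 14 peaks at TCF7L2). NR5A2, ASCL2 and SOX9 were among those with an HSF1 peak. Among 16 genes of intestinal differentiation, many of which CDX2 and HNF4A are known to bind, 3 had an H3K27ac peak (KRT20 at 9.54-fold, MUC13 at 8.98 and CDH17 at 6.67), and CDH17, CEACAM5 and APOA1 had an HSF1 peak.

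Of 12 epithelial markers 11 had an H3K27ac peak, led by CLDN4 (10.1-fold), KRT8 (9.34-fold), KRT18 and ST14 (8.98-fold each), EPCAM was the exception and PROM1 had an HSF1 peak. Of 15 transcription factor genes of other lineages 2 had an H3K27ac peak (NEUROD1 at 9.34-fold and PAX6 at 7.86), and EBF1, MITF and TBX5 an HSF1 peak. Of 6 factors of epithelial-mesenchymal transition, TWIST1 (7.30-fold) and ZEB1 (6.73-fold), which is known to repress epithelial genes such as GRHL2, had an H3K27ac peak. Markers of cells other than epithelium were not all without one: PTPRC (6.73-fold, and an HSF1 peak) of 5 leukocyte markers, and VWF (7.41-fold) and DCN (7.30-fold) of 6 fibroblast or endothelial markers. The share of the 9 genes with an H3K27ac peak stood between that of the epithelial markers and that of their own families. The genes and lists were chosen with earlier results of these data known, and this order was not tested.

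**Figure D5:**
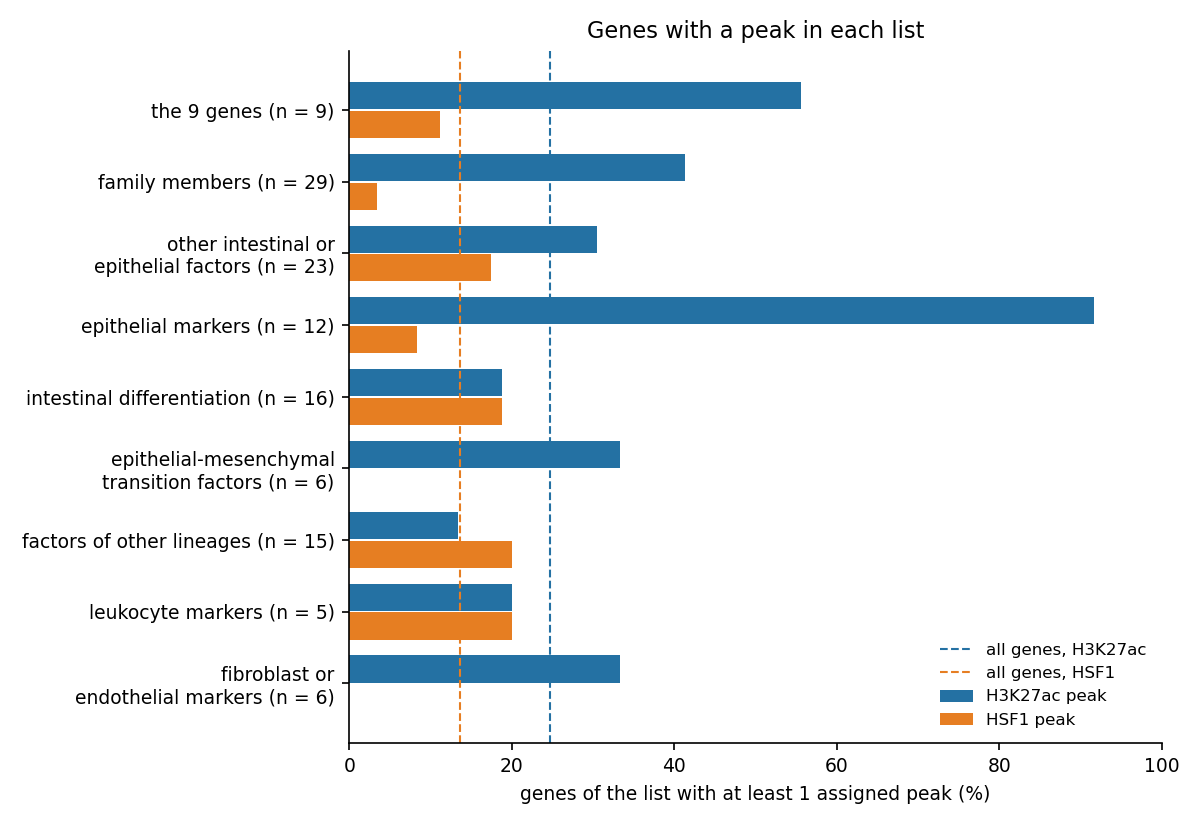
Share of genes with at least 1 assigned peak (horizontal axis, %) in the 9 genes and in 8 other lists, for H3K27ac (blue) and HSF1 (orange), with dashed lines at the shares over all RefSeq genes (24.7 and 13.6%). The H3K27ac bar of the 9 genes (5 of 9) is below that of the epithelial markers (11 of 12) and above that of family members (12 of 29).

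Genes with the most similar pattern had the same number of H3K27ac and HSF1 peaks and the nearest sum of H3K27ac tags. For EHF (385 tags) these were LOC101927620 (382) and PRKACB (368), of 14 candidates. For KLF4 (405 tags) they were RUNX1 (407) and GTF2F2 (428), of 13. EIF3C and GSG1 (147 each) matched ELF3 among 180 candidates, and ACYP2 (190) and UBE2E1 (186) matched KLF5 among 46. GRHL2 (155 tags) was matched by ZFYVE9 (154) and MIR4435-2HG (157) of 35 genes with 4 H3K27ac peaks and 1 HSF1 peak. These likenesses rest on counts in 2 lists and on nothing else.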

How the data were processed

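Per the labels, the authors used FastQC and Bowtie2 2.2.7 with hg19; by the study's methods, MACS called each IP against its own input. Library depth was not given in those sources. Deposited lists (39350 H3K27ac and 24461 HSF1 rows, 1 per peak and transcript) hold whole tag counts per peak without normalization, a score, the authors' fold enrichment as a ratio over local background, and a false discovery rate in percent. Peaks were called by the authors per library, with minimum scores of 50 (H3K27ac) and 30 (HSF1), so values were compared within a list. The annotation class, gene and start were those deposited; a nearest gene is no measured target. Inputs entered only through fold enrichment and score.

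Rows were reduced to 1 per region and symbol. RefSeq (GRCh38.p14) gave the background of 29853 genes (those having a curated transcript, on the autosomes or X), gene order and promoters, but no converted positions. The positions of CDX1, CDX2, HNF4A and GATA6 in hg19 and the sequence under peaks were not analysed here. The 9 genes and all lists were chosen with earlier results of these data known. Named genes were the 9, genes assigned a peak within 100 kb of their starts, up to 4 per list of highest fold enrichment with those having an HSF1 peak, and the 2 most alike. An item that this rule names is not reported here. HNF4G, members of lists without a peak and the neighbours of genes without a peak were named after their values were seen. Overlap required 1 bp. Joining, ranking and intervals were tested on simulated data. Scripts ran under Python 3.11.15 with pandas 2.3.3, numpy 2.4.6 and scipy 1.17.1; plots used matplotlib 3.10.9.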

Additional observations from a re-analysis of the deposited data

How the results depend on the processing

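The number of genes with an H3K27ac peak stayed at 5 with a score of 100 or more, with any peak within 50 kb of the start (for the 5 genes with a deposited start), by accession and against protein-coding genes, was 4 (GRHL2 lost) at 8-fold or more, and was 1 (EHF) with promoter-class peaks only. For HSF1 the count of 1 (GRHL2) stayed within 100 kb and was 0 with a score of 50 or more and 0 at 5-fold or more. The count of genes in joined regions above the tangent point was 0, also by summed tags and without promoter-class peaks, but 1 (KLF5) with peaks joined within 5 kb and 2 (EHF and ELF3) within 20 kb. The order of the genes by highest fold enrichment depended on the measure: by summed tags or by covered width 0 of 5 genes kept their place (KLF4, EHF, KLF5, GRHL2, ELF3), and by highest tags per kb 1 of 5 did (ELF3, EHF, KLF4, GRHL2, KLF5). Without KLF4, an alternative chosen after seeing the data, the intergenic share was 58.6% in place of 72.1%. With 16 to 60 tags per peak, the counting intervals of the genes' highest folds overlapped, and with 1 library per group left-out replicates could not be tried. No paired analysis was possible because each group holds 1 library.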
